A study of Mus musculus with 15 samples.

Results

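The genes described here are 10 Sox transcription factor genes of the mouse, Sox1, Sox2, Sox4, Sox5, Sox6, Sox8, Sox9, Sox11, Sox12 and Sox17. They were taken by their gene names from a matrix of 55359 genes, and were chosen with earlier results of these data known. RNA was sequenced in 15 mouse samples, 3 in each of 5 groups. 46LCNEC_cell was a single adherent cell line derived from a large cell neuroendocrine carcinoma (LCNEC) that arose in the lung of a QKO mouse after Ad-CMVcre, an adenovirus with Cre under the ubiquitous CMV promoter. 57SCLC_cell was a single line that grew in suspension, derived from a small cell lung carcinoma (SCLC) after Ad-K5cre, in which the keratin K5 promoter drives Cre. QKO mice carry floxed tumor suppressor genes, Rb1 and Trp53 among them, and a null Rbl1 allele. 46LCNEC_allo and 57SCLC_allo were tumors grown from these lines under the skin of immunocompetent QKO mice, so they hold host cells too, and Lung was normal lung of littermates of the recipients. The cell samples were 3 dishes or flasks (A, B and C) of 1 line each, the allografts were tumors 312, 319 and 321 and tumors 275, 316 and 317, and the lungs were CT3, CT4 and CT5. p-values for the cells therefore measure the spread between cultures of 1 line, and those for the allografts the spread between tumors grown from 1 line. Line, founder tumor, promoter, tumor type, growth form (adherent or in suspension) and passage cannot be told apart.

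Sox proteins bind DNA through an HMG box, a domain that sits in the minor groove and bends the helix, and they usually act with a partner factor. They fall into subgroups by their box. SoxB1 factors (Sox1, Sox2) keep neural progenitors undifferentiated, and Sox2 also acts in airway epithelium. SoxC factors (Sox4, Sox11, Sox12) act in neuronal and mesenchymal progenitors. SoxD factors (Sox5, Sox6) have no transactivation domain of their own and work with SoxE factors in cartilage. SoxE factors (Sox8, Sox9) act in cartilage, glia and the tips of the growing lung epithelium, and SoxF factors (Sox17 here) act in endoderm and blood vessel endothelium.

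The cultured cells of the lines differed most in Sox9 and Sox6, and the allografts most in Sox9. Sox9 was at 972 to 5825 normalized counts in 46LCNEC samples and at 1 read in all flasks of 57SCLC_cell together, whereas Sox6 was high in 57SCLC_cell and close to the limit of detection in 46LCNEC_cell. Sox11 and Sox12 were higher than in Lung in the cells and in the allografts of both lines. Sox17 was high in Lung, low in both allografts and at 0 in the cells of both lines.

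The subgroups are drawn by the box, so closer boxes within a subgroup follow from that and are given as description only. A stretch of 60 coding bases that starts the conserved part of the box is shown for the 8 genes with counts above 0, 5′ to 3′ on the coding strand, with capitals at the 24 bases that are the same in all 10 members.
Sox9: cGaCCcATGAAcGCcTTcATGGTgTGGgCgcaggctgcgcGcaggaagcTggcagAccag
Sox8: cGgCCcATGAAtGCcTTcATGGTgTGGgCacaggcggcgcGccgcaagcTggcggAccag
Sox6: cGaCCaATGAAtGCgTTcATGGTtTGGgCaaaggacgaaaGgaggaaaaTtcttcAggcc
Sox5: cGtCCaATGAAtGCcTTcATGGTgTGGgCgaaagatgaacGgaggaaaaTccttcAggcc
Sox11: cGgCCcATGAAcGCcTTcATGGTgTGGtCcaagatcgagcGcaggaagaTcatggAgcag
Sox4: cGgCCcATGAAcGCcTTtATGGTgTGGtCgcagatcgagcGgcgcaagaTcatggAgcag
Sox12: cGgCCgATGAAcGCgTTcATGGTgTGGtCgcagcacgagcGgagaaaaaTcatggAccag
Sox17: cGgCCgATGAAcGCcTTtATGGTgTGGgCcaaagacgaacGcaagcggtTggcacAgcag
The stretches are from the GENCODE transcripts on GRCm39. The Sox9 stretch lies at chr11:112673729-112673788 on the plus strand, that of Sox6 at chr7:115088938-115088997 on the minus strand, that of Sox11 at chr12:27392198-27392257 on the minus strand and that of Sox17 at chr1:4563363-4563422 on the minus strand, all of them in coding exons. Over the 79 residues of the box, translated from these transcripts, the 6 pairs within a subgroup had 69 to 78 identical residues (87.3% to 98.7%) and the 39 pairs between subgroups had 38 to 55 (48.1% to 69.6%). Sox8 and Sox9 were the closest pair, with 78 identical residues. No pair of members shared more than 48 bases in a row over their whole transcripts (Sox4 with Sox11).

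**Figure D1:**
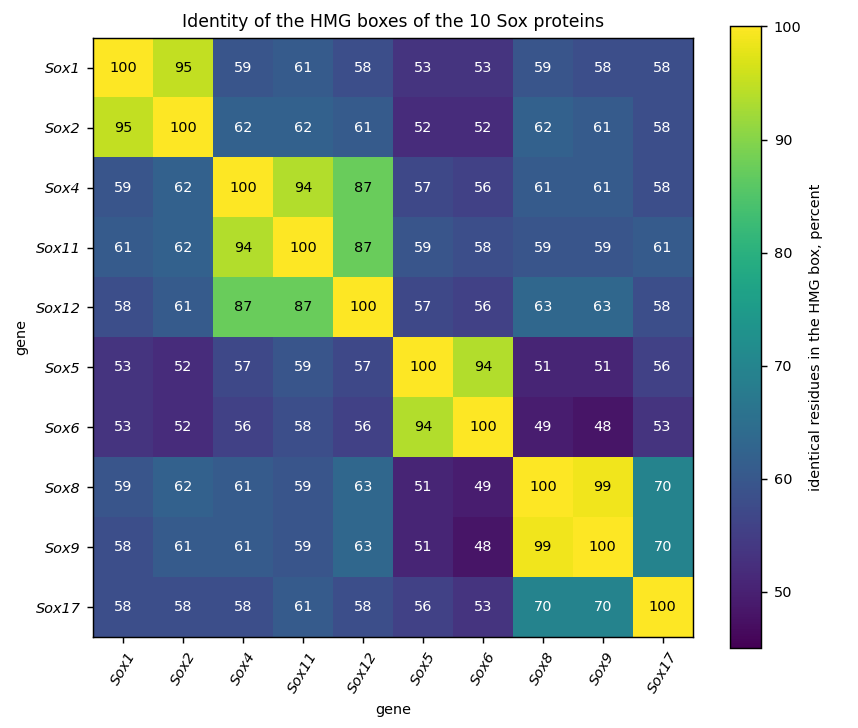
Percent of identical residues in the HMG box for each pair of the 10 Sox proteins, ordered by subgroup. The 6 pairs within a subgroup lie between 87.3% and 98.7% and all other pairs at or under 69.6%.

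The libraries held 9480244 to 44876572 reads counted to genes, with a median of 26502525. Flask C of 57SCLC_cell stood apart from flasks A and B (chi-square per degree of freedom 144 and 127, against 2.80 between A and B), and the 46LCNEC_allo tumors differed among themselves by 92.6 to 133. Tumor 319 was the highest of its group in Sox4, Sox6, Sox8, Sox9, Sox11 and Sox12. As a check of the labels, the alveolar and airway epithelium markers summed to 310552 to 414961 normalized counts in Lung and to at most 2575 in any other sample. The 8 neuroendocrine markers, such as Chga and Syp, summed to 58221 to 77371 in 57SCLC_cell and 50181 to 62897 in 57SCLC_allo. In 46LCNEC_cell and 46LCNEC_allo they summed to 54.6 to 94.8 and 27.4 to 71.9, under the 227 to 265 of Lung. In each of these groups 1 of the 8 markers was at or under 3 reads per library, and the others were low, with at most 39.4 normalized counts for any marker in any sample. Rb1 (66.6 to 777), Rbl1 and Trp53 had counts in every group, and gene-wide counts do not test which exons are deleted.

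Sox1 and Sox2 were listed at 0 in all 15 samples, and the other 8 members were above 0 in at least 1 sample. These zeros cannot be read as absence. Both genes lie wholly within the span of a long transcript on the same strand, Sox1ot (Sox1 overlapping transcript) and Sox2ot. Of 1289 protein-coding genes that lie within the span of another gene, 957 (74.2%) were at 0 in all samples, against 2291 of 9989 (22.9%) of those that overlap no other gene. Among 10349 that overlap another gene only in part, 429 (4.15%) were at 0. B2m and Rpl35, which every cell uses, were also listed at 0; they were chosen after their values were seen. Reads of Sox1 and Sox2 may thus be missing or may sit in the counts of the transcript around them, which was not tested.

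Sox1ot was seen almost only in 57SCLC samples. Its normalized counts were 5443, 5643 and 4605 in 57SCLC_cell and 1587, 1903 and 1693 in 57SCLC_allo, and at most 6.57 in any 46LCNEC or Lung sample. Sox1ot fell by 1.60 on the log2 scale from 57SCLC_cell to 57SCLC_allo (SE 0.11, limma adjusted p = 9.77e-06). Sox2ot was at 1695, 1498 and 1119.7 in 57SCLC_cell and between 211 and 610.1 in the other 12 samples, with no overlap. It was higher in 57SCLC_cell than in 46LCNEC_cell by 2.32 on the log2 scale (SE 0.16, adjusted p = 3.51e-06), while the allografts differed by 0.43 (SE 0.32, adjusted p = 0.284). The other 7 transcripts named after a Sox gene, Sox5it, Sox5os1 to Sox5os5 and Sox6os, lie within Sox5 or Sox6 and were listed at 0 in every sample. Counts of Sox5 (span 953553 bases) and Sox6 (568755 bases) may in the same way include reads of introns and nested genes, so levels are compared between samples and never between genes.

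Differences were tested with limma on log2(normalized count + 1) after a filter that kept genes reaching 10 normalized counts in 3 or more of the samples being compared. A call required an adjusted p (Benjamini-Hochberg) no higher than 0.01 together with a log2 difference of 1 or more in either direction. Between the cells, 57SCLC_cell against 46LCNEC_cell, 6 members could be tested. Sox6 and Sox12 were called higher and Sox9 lower, that is 2 and 1 members, where 23.9% and 22.2% of all genes were called higher and lower. Between the allografts, 57SCLC_allo against 46LCNEC_allo, 8 members were tested, 1 (Sox11) was called higher and 2 (Sox4, Sox9) lower, where the background was 16.1% and 14.2%.

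Against Lung, 8 members were tested in each comparison. In 46LCNEC_cell 3 were called higher (Sox9, Sox11, Sox12; background 20.6%) and 3 lower (Sox6, Sox8, Sox17; background 35%). In 46LCNEC_allo 3 were called higher (Sox9, Sox11, Sox12; 13.4%) and 1 lower (Sox17; 22.1%). In 57SCLC_cell 3 were called higher (Sox6, Sox11, Sox12; 21.1%) and 3 lower (Sox8, Sox9, Sox17; 32.7%), and in 57SCLC_allo 2 were called higher (Sox11, Sox12; 18.9%) and 2 lower (Sox6, Sox17; 26.9%). These comparisons share the 3 lungs.

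From cells to allograft, 46LCNEC had 1 member called higher (Sox17; background 14.4%) and 0 called lower (background 8.45%). With limma at an unadjusted p under 0.05, 2 members were lower there (Sox5, Sox11), and the share over all genes was not computed. edgeR called 0 lower and DESeq2 1 (Sox11), where 1257 and 1446 of all 16375 genes tested were called lower. In 57SCLC, 2 members were called higher (Sox9, Sox17; 14.4%) and 1 lower (Sox6; 2.29%). The test of whether the line difference changed from cells to allografts called 1 member higher (Sox9; 10.8%) and 2 lower (Sox4, Sox6; 6.78%). With at most 8 members tested, none of these counts is read as a property of the family. The median log2 fold change of the members tested was 0.49 between the cells and -0.54 between the allografts, against 0.00 and 0.01 over all genes tested.

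**Figure D2:**
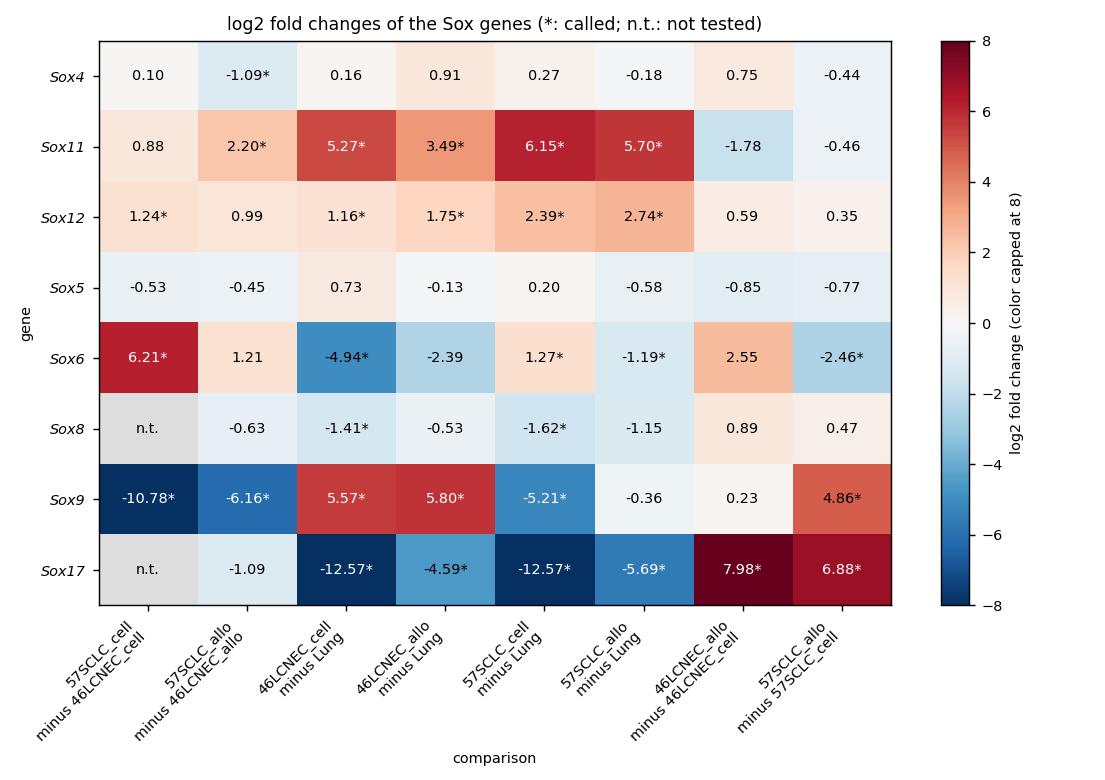
limma log2 fold changes of the 8 Sox genes above 0 (rows) in the 8 comparisons between 2 groups (columns), with color capped at 8. Stars mark calls, and gray cells were not tested. Sox11 and Sox12 are called higher in each comparison with Lung, and Sox9 is called lower in both comparisons of 57SCLC with 46LCNEC.

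**Figure D3:**
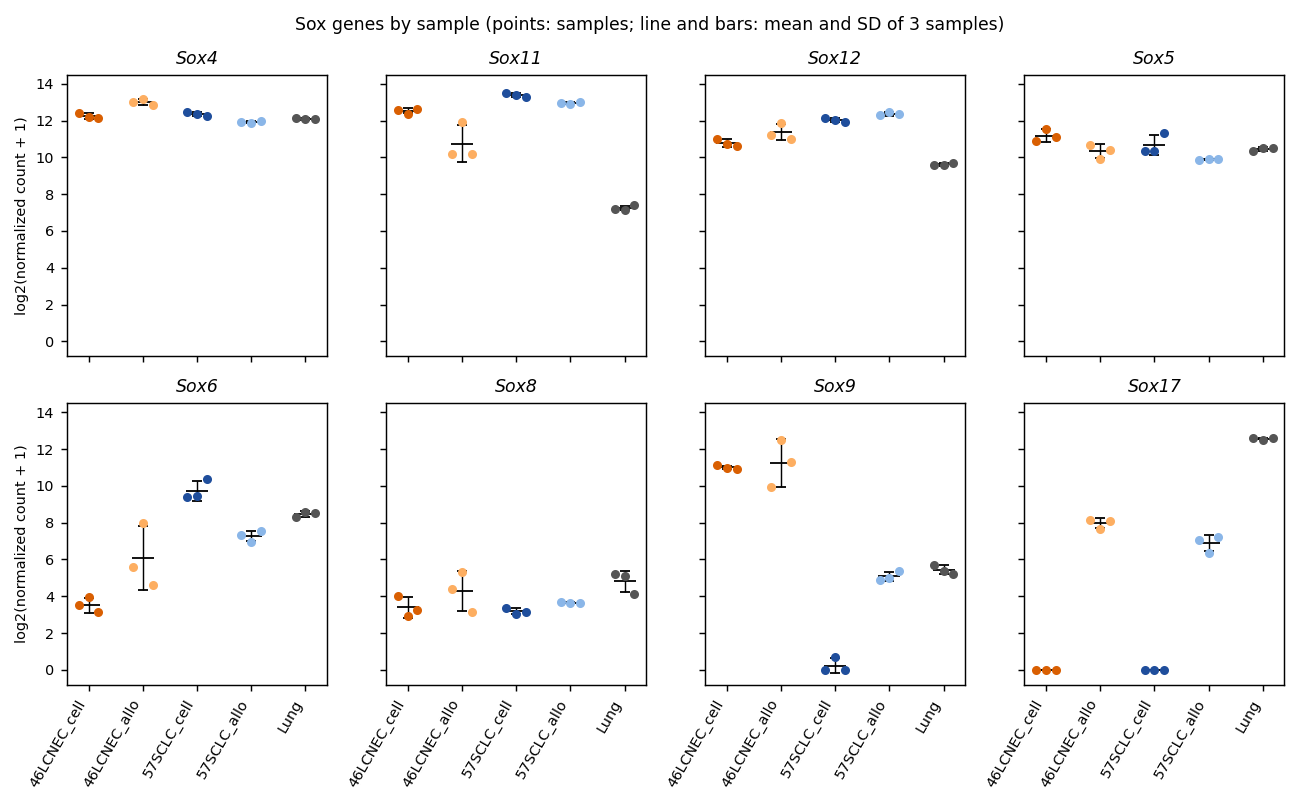
log2(normalized count + 1) of the 8 Sox genes in each of the 15 samples, grouped by sample type. Points are samples, and the line and bars are the mean and SD of 3 samples. Sox9 and Sox6 separate the cells of the lines in opposite directions, and Sox17 is at 0 in both.

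Sox11, a SoxC factor of immature neurons, was the member with the largest rise over Lung in 57SCLC. Its normalized counts were 147, 141 and 167 in Lung. They were 6085, 5298 and 6302 in 46LCNEC_cell and 11632, 10881 and 10000.1 in 57SCLC_cell. All cell samples were far above all lungs, and the flasks of 57SCLC were above all dishes of 46LCNEC. Against Lung the log2 fold change was 5.27 in 46LCNEC_cell (SE 0.10, adjusted p = 5.14e-10) and 6.15 in 57SCLC_cell (SE 0.10, adjusted p = 7.2e-09). Between the cells the log2 difference of 0.88 (SE 0.10, adjusted p = 6.09e-05) was under the fold threshold, and it passed it (1.11) when libraries were scaled by their size alone.

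In the allografts, Sox11 was at 1154, 3812 and 1138 in 46LCNEC_allo and at 7804, 7585 and 8284 in 57SCLC_allo. Tumor 319 held over 3 times the count of the other two, and the groups did not overlap. Both exceeded Lung, by 3.49 (SE 0.47, adjusted p = 0.000842) and 5.70 (SE 0.09, adjusted p = 2.38e-08) on the log2 scale. The difference between the allografts, 2.20 (SE 0.45, adjusted p = 0.00593), was called by limma but not by edgeR (adjusted p = 0.0147), and it was no longer called without tumor 312, 321, 275, 316 or 317 (log2 1.92, 1.91, 2.21, 2.23 and 2.17, adjusted p = 0.0161 to 0.0262). Without tumor 319 it was 2.78, and Sox11 in 46LCNEC_allo was then above Lung by 2.91. From cells to allograft the log2 change of Sox11 in 46LCNEC was -1.78 (adjusted p = 0.0124), and -2.36 without tumor 319 (adjusted p = 2.1e-05).

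Sox12, the third SoxC factor, rose over Lung in all 4 groups. Its normalized counts were 764, 760.0 and 835 in Lung and 2047, 1704 and 1542 in 46LCNEC_cell. They were 2363, 3762 and 2079.8 in 46LCNEC_allo. They were 4452, 4151 and 3803 in 57SCLC_cell and 4960.0, 5638 and 5218 in 57SCLC_allo. Every tumor-derived sample lay above every lung, and every 57SCLC sample lay above every 46LCNEC sample. The log2 fold changes over Lung ran from 1.16 (46LCNEC_cell, SE 0.11, adjusted p = 7.77e-06) to 2.74 (57SCLC_allo, SE 0.08, adjusted p = 9.69e-08). Between the lines the log2 difference was 1.24 in cells (SE 0.12, adjusted p = 2.46e-05). In allografts it was 0.99 (SE 0.22, adjusted p = 0.00796), just under the fold threshold, and 1.25 without tumor 319 (adjusted p = 0.00036).

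Sox4, which is widely expressed in progenitors and carcinomas, differed little between most groups. It was at 4491, 4318 and 4270.4 in Lung, 5465, 4700.5 and 4508 in 46LCNEC_cell and 5736, 5243 and 4781 in 57SCLC_cell. The allografts parted, with 8245, 9185 and 7320.1 in 46LCNEC_allo and 3811, 3695 and 4053 in 57SCLC_allo. The former were above and the latter below all other samples, although 57SCLC_allo against Lung (-0.18, adjusted p = 0.0433) was not called and was at 0.03 with scaling by library size. The difference between the allografts was -1.09 (SE 0.11, adjusted p = 0.000273), and it was -0.83 and not called with scaling by library size. Sox4 lies within the span of an antisense transcript, A330102I10Rik, in the annotation used for positions, and Sox9 within that of another, BC006965. How reads on either strand were assigned is not stated.

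Neural partners and targets of SoxB1 and SoxC, 17 genes, gave 11 that could be tested between the cells. Of these 6 were called higher in 57SCLC_cell and 4 lower, against 23.9% and 22.2% of all genes, with a median log2 fold change of 1.78 (0.00 over all genes). Pou3f4, a POU factor that pairs with Sox proteins, was at 828 to 1218 in 57SCLC_cell and at 0 in every 46LCNEC and Lung sample. Dcx, a microtubule protein of migrating neurons, was higher by 7.50. Nes, the intermediate filament of neural progenitors, and Tead2 were lower, by -5.09 and -4.07. Between the allografts 6 of 11 were called higher and 2 lower (16.1% and 14.2% of all genes), with Prox1 (9.89) and Pou3f4 leading and Nes (-3.07) and Tead2 (-2.30) lower. Against Lung, 3 of 8 tested were called higher and 0 lower in 46LCNEC_cell by limma (20.6% and 35% of all genes), and 6 of 9 higher and 2 lower in 57SCLC_cell (21.1% and 32.7%). Neurod1, Pou3f3 and Tubb3 were listed at 0 in all groups. Whether they lie within the span of another gene was not examined, so these zeros cannot be read as absence.

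Sox6 separated the cell lines in the opposite sense to Sox9. Its normalized counts were 10.3, 14.3 and 7.69 in 46LCNEC_cell and 677, 689 and 1318 in 57SCLC_cell, where flask C was the highest. In Lung they were 312, 383 and 364. The groups did not overlap, with Lung in between. The difference between the cells was 6.21 on the log2 scale (SE 0.32, adjusted p = 6.98e-07), and 5.90 without flask C. 46LCNEC_cell was below Lung by -4.94 (SE 0.25, adjusted p = 1.19e-07). 57SCLC_cell was above Lung by 1.27 (SE 0.26, adjusted p = 0.00222), a call that was lost without flask C (0.96), without any of the 3 lungs (1.19 to 1.33, adjusted p = 0.0101 to 0.0161) and with all 15 samples in 1 fit (adjusted p = 0.0714).

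In the allografts the order of Sox6 was less clear. Tumors of 46LCNEC_allo had 47.7, 256 and 23.2, and those of 57SCLC_allo 158, 125 and 185. Tumor 319 lay above all 57SCLC_allo tumors and the other two below them, so the groups overlapped. The difference was 1.205 (SE 0.82, adjusted p = 0.25), 2.17 without tumor 319 (adjusted p = 0.00548), 0.47 without tumor 321 (adjusted p = 0.592) and 0.52 in edgeR (adjusted p = 0.621). From 57SCLC_cell to 57SCLC_allo Sox6 fell by 2.46 on the log2 scale (SE 0.27, adjusted p = 0.000177), and 57SCLC_allo was below Lung by -1.19 (SE 0.19, adjusted p = 0.000593), which was not called with scaling by library size (-0.98) or with all 15 samples in 1 fit (adjusted p = 0.0958). From 46LCNEC_cell to 46LCNEC_allo the change was 2.55 (SE 0.82, adjusted p = 0.0332), 3.28 without tumor 321 (adjusted p = 0.0092) and 1.58 without tumor 319 (adjusted p = 0.0254). DESeq2 (3.35, adjusted p = 0.000376) and the fit of all 15 samples (adjusted p = 0.00237) called it. Against Lung, 46LCNEC_allo was at -2.39 (adjusted p = 0.039), -3.36 without tumor 319 (adjusted p = 0.00057), -1.66 without tumor 321 (adjusted p = 0.0741) and -1.60 in edgeR (adjusted p = 0.132). The fit of all 15 samples called it (adjusted p = 0.00309).

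Sox5, the other SoxD factor, was called in no comparison. Its normalized counts were 1919.6, 3009 and 2179 in 46LCNEC_cell and 1295, 1285 and 2514 in 57SCLC_cell. In the allografts they were 1639.7, 971 and 1344 (46LCNEC) and 912, 944 and 975 (57SCLC). Lung had 1286, 1464 and 1477. Flask C was again above flasks A and B, and the cells of the lines overlapped. Its differences ranged from -0.85 (46LCNEC_allo against 46LCNEC_cell, adjusted p = 0.0185) to 0.73 (46LCNEC_cell against Lung, adjusted p = 0.00162), none of them reaching the fold threshold.

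Sox9, a SoxE factor of chondrocytes and of lung tip progenitors, had the largest difference between the lines. It was at 2224, 2004 and 1967 in 46LCNEC_cell and at 972, 5825 and 2496 in 46LCNEC_allo. In 57SCLC_cell it was at 0, 0.603 and 0, which is 1 read over the 3 flasks, and in 57SCLC_allo at 28.7, 31.1 and 39.7. Lung had 51.6, 40.9 and 36.3. All 46LCNEC samples were far above all others. From pooled reads, 46LCNEC_cell held 11151 times the level of 57SCLC_cell, with a 95% exact interval of 2001 to 440511 that covers counting error only. The limma test, which does not use this ratio, gave an adjusted p of 1.06e-08. Lung held 239 times that level (42.2 to 9498; limma adjusted p = 1.15e-06).

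Over Lung, Sox9 rose by 5.57 in 46LCNEC_cell (SE 0.15, adjusted p = 2.65e-09) and 5.80 in 46LCNEC_allo (SE 0.61, adjusted p = 0.000286) on the log2 scale. The latter value was 5.16 without tumor 319, the highest, and 6.46 without tumor 312, the lowest. Between the allografts the difference was -6.16 (SE 0.60, adjusted p = 0.000221), -5.52 without tumor 319 and -6.81 without tumor 312. The change from cells to allograft in 46LCNEC was 0.23 (SE 0.56, adjusted p = 0.754) and -0.40 without tumor 319. In 57SCLC, Sox9 rose from 1 read to 69 over the tumors, a ratio of 186 (32.3 to 7458; limma adjusted p = 1.95e-05), and 57SCLC_allo then differed from Lung by -0.36 (SE 0.28, adjusted p = 0.269).

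Markers of host cells rose in the same tumors. The 10 fibroblast markers summed to 976 to 1136 in 57SCLC_cell and 40600 to 61692 in 57SCLC_allo, and the 7 leukocyte markers to 249 to 275 and 8974 to 14868. Their part in the count of Sox9 in 57SCLC_allo was not tested. In bulk samples, fewer cells of a type and less RNA per cell cannot be told apart. In 46LCNEC, fibroblast markers were at 87591 to 98675 already in the cells, where Col1a1 was at 19769 to 22399 and Dcn at 8.44 to 13.8. Schwann cell markers summed to 10302 to 12603 in 57SCLC_cell, 7739 to 9370 in 57SCLC_allo and 5310 to 5577 in Lung, against 583 to 3046 in the 46LCNEC samples. As a set they were not higher in 57SCLC_cell than in Lung. By limma, 2 of 6 tested were called higher and 3 lower (21.1% and 32.7% of all genes), with a median of -0.49. Cdh19 and Foxd3 were at 0 in 57SCLC_cell. Chondrocyte markers, which include targets of Sox9, summed to 1903 to 2192 in 46LCNEC_cell and to at most 1531 elsewhere, and skeletal muscle markers to at most 530 in any sample.

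The 14 cartilage targets of Sox9, Sox5 and Sox6 split between the lines. Between the cells 9 were tested, 4 called higher in 57SCLC_cell and 4 lower (23.9% and 22.2% of all genes), with a median of 0.34 (0.00 over all genes). Col11a1, a cartilage collagen, was at 5431 to 5864 in 46LCNEC_cell and at most 0.603 in 57SCLC_cell, and Acan, the large cartilage proteoglycan, was at 722 to 827 against at most 2.41. Col9a2 (5.95) and Hapln1 (4.23) were higher in 57SCLC_cell. Between the allografts, 2 of 9 were called higher and 2 lower (16.1% and 14.2%), with Acan (-8.37) and Matn3 (-5.28) lower and Col9a2 (6.55) and Comp (3.19) higher. Against Lung, 5 of 8 tested were called higher and 1 lower in 46LCNEC_cell (20.6% and 35%), and 5 of 6 higher and 0 lower in 57SCLC_cell by limma (21.1% and 32.7%). From cells to allograft in 46LCNEC, Col2a1, a direct Sox9 target in cartilage, fell by 4.38 and Col11a1 fell by 4.28. Col2a1 was at 962 to 1201 in the cells and at 19.9, 22.1 and 278 in the tumors, which thus differed widely. Of the list 8 were tested there, and 1 was called higher and 2 lower (14.4% and 8.45% of all genes).

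Genes of airway and lung epithelium around Sox2 and Sox9, 11 in all, were called higher for 5 and lower for 3 of 9 tested in 57SCLC_cell against 46LCNEC_cell (median 1.11), where 23.9% and 22.2% of all genes were called. Etv4 (-9.45) and Etv5 (-6.75), FGF-induced factors of the lung tip, were lower with Sox9, and Foxj1 (4.12) and Foxa1 (3.34) were higher. Etv4 was at 3795 to 4305 in 46LCNEC_cell, 3.27 to 6.77 in 57SCLC_cell, 1158 to 1776 in 46LCNEC_allo and 93.4 to 208 in 57SCLC_allo. In Lung it was at 20.9 to 24.6, so both 46LCNEC groups lay above all other samples, as for Sox9.

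Sox8, whose box differs from that of Sox9 in a single residue, was low in every sample. It was at 15.01, 6.62 and 8.46 in 46LCNEC_cell, 9.27, 7.24 and 7.82 in 57SCLC_cell and 35.9, 32.9 and 16.4 in Lung. In the allografts it was at 19.9, 38.9 and 7.74 (46LCNEC) and 11.97, 11.32 and 11.35 (57SCLC). At most 48 reads stood behind any value. All cell samples were below all lungs, by -1.41 in 46LCNEC_cell (SE 0.40, adjusted p = 0.0089) and -1.62 in 57SCLC_cell (SE 0.33, adjusted p = 0.00239). The first call was lost in DESeq2 (adjusted p = 0.0179), with both other scalings, and without dish B or C or without lung CT3 or CT4 (-1.34 to -1.18, adjusted p = 0.0343 to 0.0417). In limma it was also lost with no filter (adjusted p = 0.0149), a pseudocount of 0.1 (0.0159) and all 15 samples in the fit (0.0163). The second was lost without flask B, CT3 or CT4 (-1.55 to -1.42, adjusted p = 0.0112 to 0.0122). Neither was called when tested against a fold change of 2 (limma adjusted p = 0.319 and 0.107). Against Lung, 57SCLC_allo was at -1.15 (adjusted p = 0.0219), and -1.495 without CT5 (adjusted p = 0.00634). Between the cells Sox8 did not pass the filter on low values.

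Of the 10 SoxE glial targets, 7 were tested against Lung in the cells. In 46LCNEC_cell 5 were called lower and 1 higher (35% and 20.6% of all genes), with a median of -2.02 (-0.23 over all genes). In 57SCLC_cell 4 were called lower and 2 higher (32.7% and 21.1%), with a median of -1.78 (-0.12). The summed level went the other way in 57SCLC_cell, at 10316 to 12616 against 5384 to 5653 in Lung, with Mbp, a myelin protein, at 7289 to 9089 against 2983 to 3314. Erbb3, a neuregulin receptor, was at 2908 to 3432 in 57SCLC_cell and 12.3 to 25.3 in 46LCNEC_cell, a log2 difference of 7.41.

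Sox17, the SoxF factor among the members, was a gene of the lung samples. It was at 6125, 5858 and 6258 in Lung and at 0 in all samples of 46LCNEC_cell and 57SCLC_cell. In the allografts it was at 286, 202 and 273 (46LCNEC) and 132, 82.1 and 149 (57SCLC). The 3 sample types did not overlap, and all 46LCNEC tumors lay above all 57SCLC tumors. Lung was at least 1836-fold higher than 46LCNEC_cell and at least 3361-fold higher than 57SCLC_cell, with 3 reads per library as the floor. The allografts were at least 76.7-fold (46LCNEC, adjusted p = 6.37e-06) and at least 66.8-fold (57SCLC, adjusted p = 1.8e-06) above their cells, and below Lung by -4.59 (SE 0.15, adjusted p = 5.81e-06) and -5.69 (SE 0.20, adjusted p = 2.21e-07) on the log2 scale. Between the allografts the difference was -1.09 (SE 0.29, adjusted p = 0.0175), which was not called. DESeq2 (-1.05, adjusted p = 0.00289) and limma with all 15 samples in the fit (adjusted p = 0.00147) did call it.

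Endothelial markers moved with Sox17, except Vwf in 57SCLC. As a share of the Lung mean, Sox17 was at 4.17% in 46LCNEC_allo and 1.99% in 57SCLC_allo, and the median of 10 endothelial markers was 8.501% and 3.82%. In the cells the markers' median was 0.138% and 0.00268%. Tie1 and Egfl7 were at 0 in all cell samples. The summed markers were 120833 to 140637 in Lung, 8615 to 12987 in 46LCNEC_allo, 11210 to 11642 in 57SCLC_allo, 428 to 515 in 46LCNEC_cell and 7179 to 7867 in 57SCLC_cell. The last of these sums came from Vwf, at 7072 to 7724 in 57SCLC_cell, where Cdh5, Cldn5 and Kdr were at most 1.56. Vwf also raised the sum of 57SCLC_allo, so the sums of the allografts are not alike in makeup. It was at 70.6% of the Lung mean there, against 1.10% to 14.1% for the other markers, and at 1.41% in 46LCNEC_allo. The part of endothelial cells in the Sox17 counts was not tested.

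**Figure D4:**
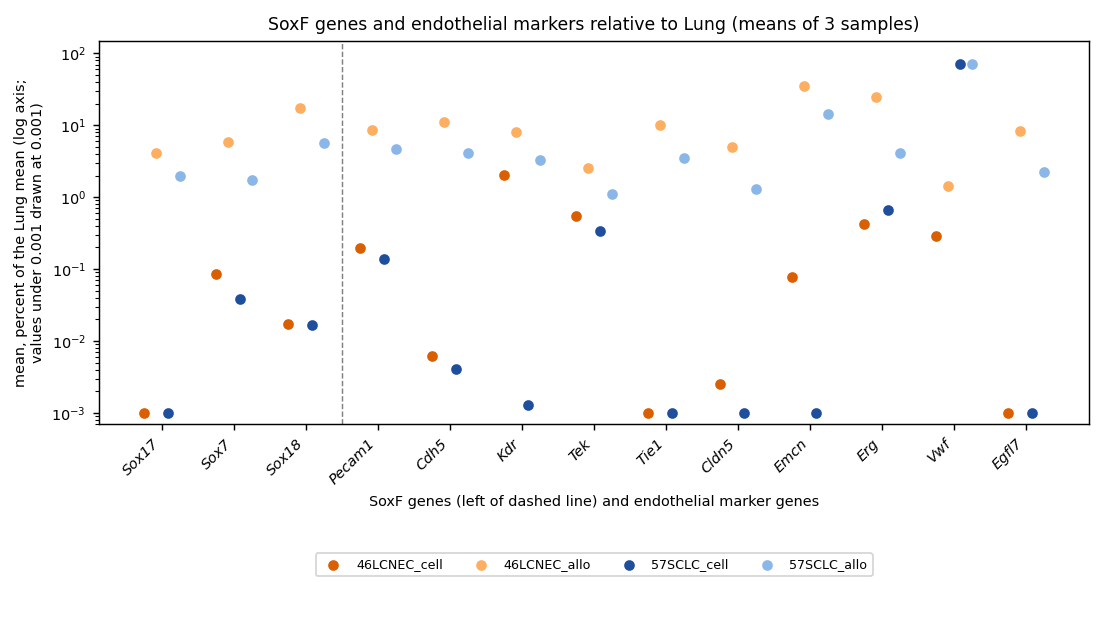
Mean normalized count of 3 SoxF genes and 10 endothelial markers in each tumor-derived group, as percent of the Lung mean, on a log axis with values under 0.001 drawn at 0.001. SoxF genes and markers lie between 1.10% and 34.8% of Lung in the allografts and at or under 2.07% in the cells, except Vwf in 57SCLC.

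The 12 SoxF endothelial partners and targets were all called lower than in Lung in each of the 4 tumor-derived groups, with medians from -8.73 (57SCLC_cell) to -3.15 (46LCNEC_allo). Of all genes, 22.1% to 35% were called lower in these comparisons. From cells to allograft, 10 of 11 tested were called higher in 46LCNEC (median 5.76) and 9 of 11 in 57SCLC (median 4.79), where 14.4% of all genes were called higher in each. Cdh5, the endothelial cadherin, led both, going from at most 3.31 in the cells to 2143 to 3735 in 46LCNEC_allo and 927 to 1204 in 57SCLC_allo. Most of these genes are also on the list of endothelial markers, so these counts are not independent of the marker values above. Between the allografts 7 of 11 were called lower in 57SCLC_allo and 0 higher by limma (14.2% and 16.1% of all genes), with Erg (-2.57) and Cldn5 (-1.92) lowest.

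The line difference itself changed from cells to allografts for 3 members. For Sox9 the difference of 57SCLC from 46LCNEC was smaller in size in the allografts by 4.63 on the log2 scale (SE 0.69, adjusted p = 0.00032), and 3.97 to 5.26 with a sample left out, the extremes without tumors 312 and 319. With 1 Sox9 read in 57SCLC_cell this size depends on the scale, and it was 2.64 with a pseudocount of 5, 7.20 with a pseudocount of 0.1, 6.26 in edgeR and 6.78 in DESeq2, called in each. For Sox6 it changed by -5.01 (SE 0.94, adjusted p = 0.00149), from 6.21 in cells to 1.205 in allografts, and by -4.04 without tumor 319 and -5.74 without tumor 321. For Sox4 it changed by -1.20 (SE 0.15, adjusted p = 0.000109), from 0.10 to -1.09. For Sox11 the change was 1.32 (SE 0.49, adjusted p = 0.0533), and 1.90 without tumor 319 (adjusted p = 1.26e-06). The changes of Sox5 (0.08), Sox8 (-0.42), Sox12 (-0.24) and Sox17 (-1.09) did not pass the test. The allografts hold host cells, and not in like amounts by all markers. Leukocyte markers summed to 22019 to 48747 in 46LCNEC_allo and 8974 to 14868 in 57SCLC_allo, while the endothelial sums overlapped. The part of host cells in these changes was not tested.

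**Figure D5:**
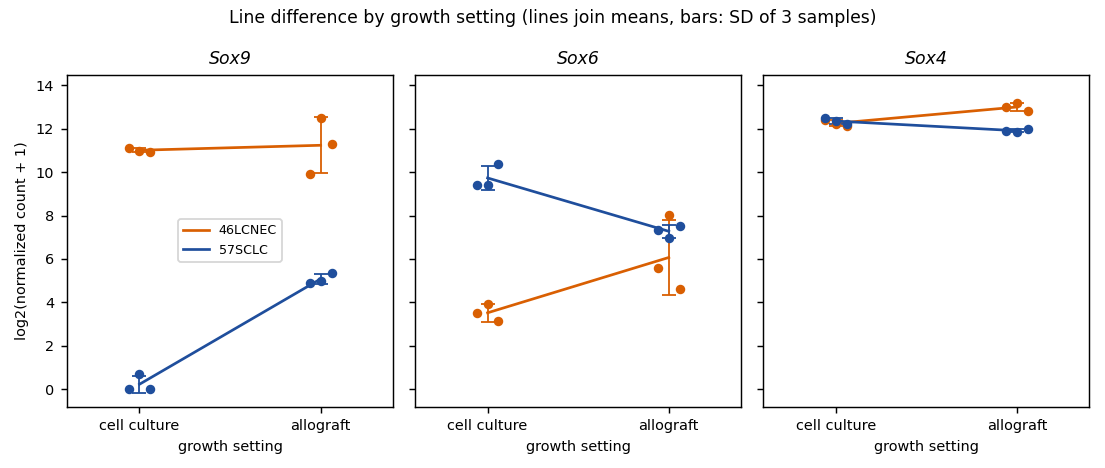
log2(normalized count + 1) of Sox9, Sox6 and Sox4 in cell culture and allograft for 46LCNEC (orange) and 57SCLC (blue). Points are samples, bars are the SD of 3 samples and lines join the means. The lines draw together for Sox9 and Sox6 and part for Sox4.

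Of 9 further Sox genes, Sox3 and Sox14 were listed at 0 or 1 read, and Sox30 was low. Sox14 lies wholly within the span of another gene, so its zeros cannot be read as absence either. Sox3 overlaps other genes only in part, over 79.1% of its span, and the effect of that overlap on its count was not tested. Sox7 and Sox18, the other SoxF genes, ran parallel to Sox17. Sox7 was at 4047 to 5365 in Lung, 206 to 316 in 46LCNEC_allo, 69.4 to 110.1 in 57SCLC_allo and at most 9.23 in cells. Sox18 was at 5222 to 6574, 667 to 1257, 295 to 352 and at most 2.21. Both were called lower in 57SCLC_allo than in 46LCNEC_allo (-1.71, adjusted p = 0.00247, and -1.60, adjusted p = 0.0016).

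Sox13, a SoxD factor, was low in 46LCNEC_cell (33.1 to 39.4) and high in 57SCLC_cell (1488 to 1877) and Lung (5419.9 to 5911). It was at 236 to 419 in 46LCNEC_allo, a called rise over the cells, and at 2547 to 3789.6 in 57SCLC_allo, where the log2 change of 0.96 was under the fold threshold. For Sox13 the line difference was 5.48 between cells (adjusted p = 1.73e-08). Between allografts it was 3.23 (adjusted p = 0.000103), smaller by -2.25 (adjusted p = 0.000182). Sox21, a SoxB2 factor that counters SoxB1, was at 11509, 10709 and 4592 in 57SCLC_cell, 809 to 973 in 46LCNEC_cell and 12.9 to 174 in Lung. The cells differed by 3.23 (adjusted p = 3.44e-05) and the allografts by 5.23 (adjusted p = 0.00957), where 46LCNEC_allo spread from 11.9 to 525. Sox10 was called lower than in Lung in all 4 tumor-derived groups, from 19.9 to 41.1 in Lung to at most 5.67 elsewhere. Sox15 was called higher in 46LCNEC_cell than in Lung (1.63, adjusted p = 0.00242) and fell by 2.28 from 46LCNEC_cell to 46LCNEC_allo (adjusted p = 0.00646), at no more than 28.4 normalized counts.

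Genes whose pattern over the 15 samples was closest to a member, among 15418 genes and by the smallest root mean square difference of centered log2 values, were Eya4 (0.87) and Cd109 (0.91) for Sox9, Tmem102 (0.89) and Palmd (0.91) for Sox6, and Gimap6 (0.61) and Ldb2 (0.61) for Sox17. For Sox11 they were 2010110K18Rik (0.44) and 2610318N02Rik (0.48), for Sox12 G2e3 (0.17) and Cacnb3 (0.24), for Sox4 Pias3 (0.14) and Ykt6 (0.16), and for Sox5 Tmem29 (0.27) and Dhrs7b (0.27). The samples share 5 groups, so these likenesses reflect group levels and describe the pattern only.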

How the data were processed

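Total RNA of 15 mouse samples, 3 per group, was sequenced after poly-A selection. Per the methods, alignment used Rbowtie2 on GRCm39, and featureCounts with the GENCODE mouse annotation gave gene counts. The deposited matrix holds signal values that the authors made by dividing those counts by DESeq2 size factors, called normalized counts here. The feature type, strand and overlap settings are not stated. Every value above 0 (100%) could be written as an integer number of read steps, to within 0.001, which gave back the reads. Depth ran from 9480244 to 44876572 reads per sample.

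Comparisons used limma 3.58.1 in R 4.3.3 with a mean-variance trend on log2(normalized count + 1) of the samples compared, and an interaction term over 12 samples. Fold changes on this scale understate changes of low genes. edgeR 4.0.16 and DESeq2 1.42.0 on the recovered reads, pseudocounts of 0.1 and 5, no filter, other scalings, thresholds and sample sets were alternatives. The edgeR test fits the recovered reads and was not the main test because the deposited values are normalized. Floors of 3 reads and intervals cover counting error only. The procedures were tested on simulated data.

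All 10 members are named. From each gene list at most 4 genes are named, the 2 highest and 2 lowest called changes of a comparison, and other Sox genes where called. Any gene named beyond this rule was picked with its values in view. The members and lists were chosen with earlier results of these data known. For positions, a later GENCODE release for GRCm39 matched 54749 identifiers (98.9%). The same letters in the cells of both lines did not pair the samples. Figures were drawn with Python 3.11.15 and matplotlib 3.10.9.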

Additional observations from a re-analysis of the deposited data

Results flagged for a closer look

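For 3 members, the difference between the lines was itself different in cells and in allografts by the interaction test. The change of the difference of 57SCLC from 46LCNEC was 4.63 for Sox9, -5.01 for Sox6 and -1.20 for Sox4, on the log2 scale (limma adjusted p = 0.00032, 0.00149 and 0.000109). The part of host cells of the allografts in these changes was not tested. Groups held 3 samples, so single samples were not tested as outliers. For Sox9 the value ran from 2.64 to 7.20 over other pseudocounts and tools, since 57SCLC_cell held 1 read of it.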

How the results depend on the processing

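Of 70 log2 fold changes of members, 43 kept their direction and call under every alternative run, and 9 of 18 counts of called members stayed within 1.5 times. The cause of the other changes was not tested. Between the allografts (57SCLC against 46LCNEC), 1 member called higher became 0 in edgeR and 0 when tested against a fold change of 2. It became 2 with scaling by library size, 2 with TMM scaling, and 0 to 3 with a sample left out. Of all 17502 genes tested there, 2821 were called higher in the main test and 2749 in edgeR. The number was 1677 against a fold change of 2, 3548 with library size and 2873 with TMM scaling. The 2 members called lower between the allografts became 1 with library size and 1 against a fold change of 2. They became 3, with Sox17, in DESeq2, at an adjusted p of 0.05 and with all 15 samples. Over all genes, the 2491 called lower became 1980, 1184, 3070, 3031 and 2997 in these settings. Between the cells, the 2 called higher became 1 against a fold change of 2, where 4043 of all 16920 genes became 2828. For 46LCNEC_allo against Lung, the 1 called lower became 2 at an adjusted p of 0.05 and 2 with all 15 samples in the fit. With a sample left out it was 1 to 2. Of all 18033 genes, the 3987 called lower became 4796 at an adjusted p of 0.05 and 4659 with all 15 samples. For 57SCLC_allo against Lung, the 2 called lower became 1 with library size, 1 against a fold change of 2 and 1 with all 15 samples. Of all 18517 genes, the 4973 called lower became 4432, 3479 and 4864 in these settings. For 46LCNEC_allo against 46LCNEC_cell, DESeq2, an adjusted p of 0.05 and all 15 samples each gave 2 higher and 1 lower. Leaving out a sample gave 1 to 2 higher and 0 to 1 lower. Of all 16375 genes, the 2355 called higher became 2679, 2840 and 2727 in the first 3 settings, and the 1383 called lower became 1446, 1812 and 1692. In the interaction, the 2 called lower became 1 against a fold change of 2, where 1250 of all 18440 genes became 398. Leaving out a sample gave 1 to 2 higher. Shares over all genes are not given for fits with a sample left out.

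Reversals were found only among values that were not called. Sox4 in 57SCLC_allo against Lung was 0.027 with library size, and the Sox5 interaction was -0.035 in DESeq2. With a sample left out, 46LCNEC_allo against Lung ran from -0.30 to 0.078 for Sox5 and from -1.05 to 0.049 for Sox8, Sox5 in 57SCLC_cell against Lung from -0.12 to 0.36, and Sox9 in 46LCNEC_allo against 46LCNEC_cell from -0.40 to 0.89. The interaction ran from -0.12 to 0.40 for Sox5, -0.99 to 0.10 for Sox8 and -0.42 to 0.01 for Sox12.

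Fitting the letter as a replicate block between the cells left 2 members higher and 1 lower, with 6.21 for Sox6 and -10.78 for Sox9; deviations of same-letter samples correlated by 0.084, -0.085 and 0.012, so the letters were not taken as pairs. Over all genes, testing against a fold change of 2 lowered the calls from 5312 to 2861 between the allografts, 6412 to 3451 for 46LCNEC_allo against Lung, 3738 to 1414 and 2842 to 1700 from cells to allograft in 46LCNEC and 57SCLC, and 3233 to 1293 in the interaction. Scaling by library size moved the share of higher calls between the allografts from 53.11% to 64.18% and the median of all genes from 0.01 to 0.27, and between the cells the median from 0.00 to 0.23. Depth limits Sox8, with at most 48 reads in a sample.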
